A study of Mus musculus with 48 samples.

Results

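The genes of the exon junction complex (EJC) and *Ccdc174*, which encodes a coiled-coil protein of the spliceosome, were followed by name in mouse embryonic stem cells (mESCs). The set holds 10 of the 55335 genes in the deposited tables: *Ccdc174*; the EJC core genes *Eif4a3*, *Magoh*, *Magohb*, *Rbm8a* and *Casc3*; *Cwc22*, whose protein brings EIF4A3 to the spliceosome; and *Rnps1*, *Acin1* and *Pnn* of the peripheral complexes. Each symbol matched 1 Ensembl identifier, and all 10 genes had enough reads to be tested in every comparison. Expression was measured by RNA-seq in 28 libraries (14 groups of 2) and by Ribo-seq, which sequences the RNA fragments that ribosomes protect, in 4 libraries (2 groups of 2).

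The EJC is a protein assembly that the spliceosome leaves on an mRNA just upstream of each exon-exon junction. Its RNA clamp is the helicase EIF4A3, locked shut by a heterodimer of MAGOH (or its paralog MAGOHB) and RBM8A (also called Y14), with CASC3 joining as a cytoplasmic core factor. A complex that remains downstream of a stop codon marks the mRNA for nonsense-mediated decay, a pathway that depends on translation and therefore stops when cycloheximide (CHX) blocks elongation.

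All lines had a hybrid 129-C57BL/6 background and a tamoxifen-inducible Cre recombinase. In the first experiment *Nrde2*-KO cells, which received 100 nM 4-hydroxytamoxifen (4OHT) for 4 days to delete floxed *Nrde2* exons, were compared with untreated WT cells of the conditional line. *Nrde2-d200* cells, whose NRDE2 lacks its N-terminal region, and *Nrde2-D174R* cells, with a point mutation in NRDE2, were compared with the same WT libraries. *Mtrex*-KO cells (4OHT for 3 days) had untreated cells of the conditional *Mtrex* line as their WT. *Ccdc174-dTAG* cells carried an FKBP12F36V degron fused to endogenous CCDC174 and received 500 nM dTAG-13 for 24 h; the WT of that experiment was the same fusion line without dTAG-13, so every library there carried the fusion. These 4 libraries, and the 4 libraries of a second *Nrde2*-KO experiment, each had a counterpart with 0.1 mg/ml CHX for 4 h, and Ribo-seq compared WT with *Nrde2*-KO cells. The lines were derived from single clones. Deletion cannot be told apart from 4OHT exposure, degradation from dTAG-13 exposure, or a point mutation or truncation from clonal differences, since the WT libraries lacked the drug or came from another clone. The labels do not say whether the 2 libraries of a group came from separate cultures, so the p-values measure the spread between libraries, which may be technical.

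Reads assigned to genes numbered 28683644 to 36272309 per RNA-seq library and 3475051 to 5035940 per Ribo-seq library, and between 33 and 18180 of them fell on any one of the 10 genes in RNA-seq (27 to 1082 in Ribo-seq). Levels are given as normalized CPM, the reads of a gene scaled to the library's total and then to a common median between libraries. *Nrde2* mRNA stood at 41.6 and 40.5 CPM in WT against 19.3 and 20.4 in *Nrde2*-KO libraries, and at 53.6 and 52.2 against 19.96 and 19.7 in the second experiment. With CHX it stood at 244 and 226 in WT and 259 and 250 in *Nrde2*-KO, so it does not separate those libraries, whose labels are unchecked. *Mtrex* stood at 119 and 112 in WT and 46.4 and 41.6 in *Mtrex*-KO libraries. CCDC174 is removed as a protein, and its mRNA cannot check the dTAG-13 labels. All 8 markers of embryonic stem cells were above 0.5 CPM in all 28 RNA-seq libraries, with a summed level of 2742 to 5929 CPM. The sum was 2.86 to 11.2 CPM for 6 fibroblast markers and 3.51 to 18.1 for 5 endoderm markers. For 5 markers of primed pluripotent cells it was 13.6 to 127 CPM. In WT of the second *Nrde2* experiment these stood at 46.2 and 49.3 CPM without CHX and 117 and 126 CPM with it.

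*Ccdc174* (ENSMUSG00000034083) lies on chromosome 6 at chr6:91878053-91899843 of mm10, plus strand. The sites at which its N terminus was opened to insert the degron are shown because they place the tag. The TALEN pair, 17 bases on each side, flanks the start codon, whose first base is chr6:91878145, and both sites lie in the first coding exon:

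forward TALEN site, chr6:91878127-91878143, plus strand: ggacgccttggcgggac

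reverse TALEN site, chr6:91878160-91878176, minus strand: gtaacgtccaaaggctt

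NRDE2 and CCDC174 were studied for splicing at weak 5′ splice sites, so the 5′ splice sites of the 10 genes themselves were read from the annotation. Over 137209 introns of 12594 genes the most frequent base at each position spelled the 9-base consensus (3 exonic bases in lower case, 6 intronic bases in capitals):

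consensus 5′ splice site: cagGTAAGT

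A site was scored by how many of its 9 bases matched. The median over all introns was 6, and 54.4% of introns had 6 matches or fewer. Of the 101 introns of the 10 genes 61 did (60.4%), and 98 of the 101 began with GT. *Ccdc174* had 8 of its 10 introns at 6 or fewer, *Pnn* 7 of 8, and *Magohb*, at the other end, 1 of 4. The weakest site of each gene whose levels are described most closely was:

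*Ccdc174*, intron 7 (4 matches), chr6:91892996-91893004, plus strand: atgGTACTG

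*Eif4a3*, intron 1 (4 matches), chr11:119299822-119299830, minus strand: acgGTGGGG

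*Casc3*, intron 1 (3 matches), chr11:98804984-98804992, plus strand: agcCTAGAT

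*Cwc22*, intron 10 (4 matches), chr2:77921404-77921412, minus strand: atgGTAGTG

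*Magohb*, intron 1 (5 matches), chr6:131293066-131293074, minus strand: acgGTGAGC

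Sites with 3 matches or fewer made up 0.364% of all introns, those with 4 or fewer 1.71% and those with 5 or fewer 16.4%. The *Casc3* site lies in the UTR and is one of the 3 that do not begin with GT, as 99.0% of all introns do. The other sites lie between coding exons. The weakest *Casc3* site between coding exons is that of intron 9, with 4 matches. Gene-level counts do not show whether any of these introns was retained, so the sites are given as a description only.

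Per kilobase of annotated exon, *Magoh* was the most abundant of the 10 mRNAs in WT cells of the first experiment, at 121 CPM per kb, followed by *Eif4a3* at 72.5 and *Rbm8a* at 44.5. *Acin1* (24.7) and *Pnn* (21.2) formed the middle, with *Casc3* at 12.5 and *Cwc22* at 8.46. *Rnps1*, at 6.34 and 6.25, could not be separated from *Magohb* at 5.36 and 6.65, since their libraries overlapped, and *Acin1* (27.0 and 22.5) stood above *Pnn* (21.4 and 20.9) by less than the gap between its own libraries. *Ccdc174* was the lowest at 2.76 and 2.66 CPM per kb. It was last in 3 of the 4 WT groups without CHX and ninth in the *Mtrex* WT libraries, where *Magohb* was last. Its annotated exons total 9188 bases against 4415 in its longest transcript, and on the latter length its level was 5.64 CPM per kb, still the lowest. Its principal coding transcript is shorter, at 1752 bases. Levels were not compared on principal transcripts, so its rank is given only for the lengths used. On the longest transcripts *Rnps1* (15.4 and 15.2) lay above *Magohb* (10.3 and 12.7) and *Casc3* (13.8 and 13.5), so the order among the lower genes depends on the length used.

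**Figure D1:**
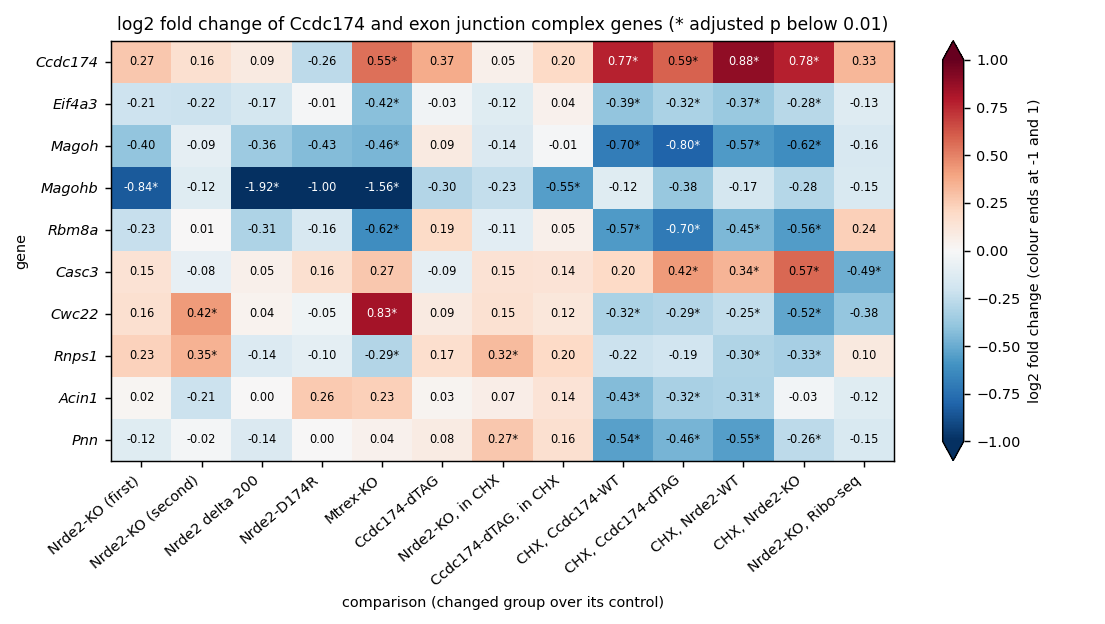
Log2 fold change (colour) of the 10 genes in comparisons of a changed group with its control, by RNA-seq and, for *Nrde2*-KO, by Ribo-seq. An asterisk marks an adjusted p below 0.01 in limma. Under CHX *Ccdc174* rises past that threshold in all 4 comparisons and *Casc3* in 3, while *Magoh* falls in all 4. *Magohb* has the largest falls, at -1.92 in *Nrde2-d200* and -1.56 in *Mtrex*-KO.

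*Ccdc174* was one of 2 genes of the set that rose when *Mtrex* was deleted, and it did not pass the test when NRDE2 was deleted or its own protein was degraded. Its normalized level was 25.1 and 31.3 CPM in *Mtrex* WT and 37.1 and 45.9 CPM in *Mtrex*-KO libraries, with no overlap between the groups. The log2 fold change was 0.55 ± 0.11 (SE; limma, adjusted p = 0.000402), or 1.47-fold. The call was lost without the first WT library (0.39, adjusted p = 0.0138), in a fit of the 4 *Mtrex* libraries alone (adjusted p = 0.0350) and on the CPM as deposited (0.16, adjusted p = 0.373). On that last scale the median of all genes moved by -0.38 between *Mtrex* WT and KO, so the value depends on how the libraries were scaled.

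In *Ccdc174-dTAG* cells the mRNA of the degraded protein was at 35.4 and 38.2 CPM, against 28.3 and 28.3 CPM in the same line without dTAG-13. The groups did not overlap, and the difference of 0.37 ± 0.11 on the log2 scale (1.3-fold) did not pass the threshold of 0.01 (limma, adjusted p = 0.0416). With CHX the levels were 57.0 and 54.1 against 48.6 and 48.4 CPM (0.20 ± 0.06, adjusted p = 0.0449). In limma fits with a block for the replicate number both differences passed (adjusted p = 0.00453 and 0.00435). *Ccdc174* stood at 25.4 and 24.5 CPM in WT, 29.7 and 30.3 in *Nrde2*-KO, 27.8 and 25.3 in *Nrde2-d200* and 19.9 and 21.6 in *Nrde2-D174R* libraries. None of these 3 differences from WT passed the test, the *Nrde2*-KO one having an adjusted p of 0.0878. In the second *Nrde2* experiment the levels were 33.3 and 31.1 CPM in WT and 36.3 and 35.5 CPM in KO libraries (0.16, adjusted p = 0.32).

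**Figure D2:**
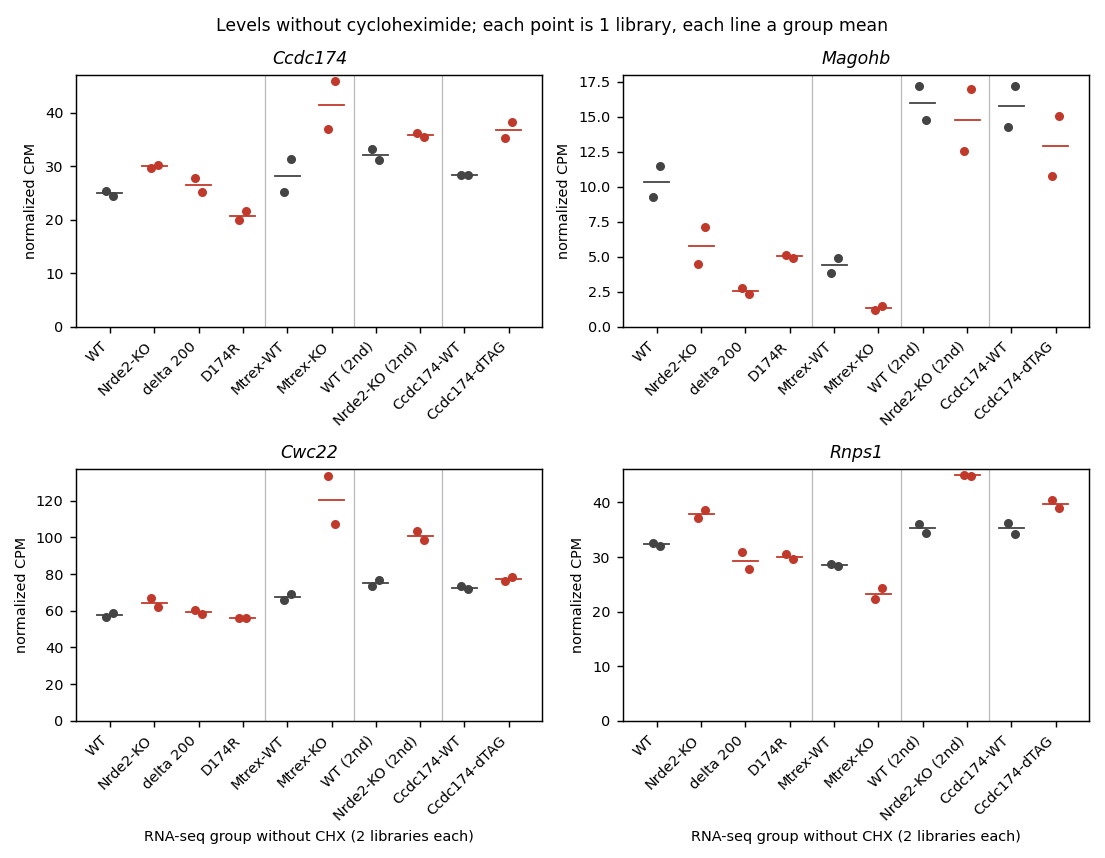
Normalized CPM of *Ccdc174*, *Magohb*, *Cwc22* and *Rnps1* in the 20 RNA-seq libraries without CHX, grouped by genotype. Points are libraries and lines are group means. *Magohb* drops in *Nrde2-d200* (2.77 and 2.31 CPM) and *Mtrex*-KO (1.15 and 1.49 CPM) libraries, and *Cwc22* and *Ccdc174* are at their highest in *Mtrex*-KO.

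Among the core genes, *Magohb* had the largest changes between genotypes. MAGOHB is a near-identical paralog of MAGOH that can take its place beside RBM8A. Its gene (ENSMUSG00000030188, chr6:131284388-131293244, minus strand) gave 9.22 and 11.4 CPM in WT and 2.77 and 2.31 CPM in *Nrde2-d200* libraries, a log2 fold change of -1.92 ± 0.22 (adjusted p = 2.44e-05), or 0.264 of WT. It was the 1 gene of the set that passed in that comparison, in which 3.22% of all genes rose and 4.27% fell. In *Mtrex*-KO it fell from 3.86 and 4.90 to 1.15 and 1.49 CPM (-1.56 ± 0.22, adjusted p = 9.44e-06). Both falls passed the test in all alternative settings and with any 1 library left out, and no libraries overlapped.

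The *Nrde2*-KO libraries of the first experiment held 4.45 and 7.11 CPM of *Magohb*, below both WT libraries (-0.84 ± 0.22, adjusted p = 0.00905). It was the only gene of the set past the threshold there, where 7.64% of all genes rose and 10.6% fell. That call was lost without the first WT library (adjusted p = 0.0193), the second WT library (0.0956) or the first KO library (0.166). In the second *Nrde2* experiment the WT libraries held 17.2 and 14.8 CPM and the KO libraries 12.6 and 16.97 CPM, which overlapped (-0.12 ± 0.22, adjusted p = 0.71). *Nrde2-D174R* libraries stood at 5.11 and 4.91 CPM, below WT but short of the threshold (-0.999 ± 0.22, adjusted p = 0.0312). No gene of the set passed in *Nrde2-D174R* (4 of 10 at an unadjusted p under 0.05), and 0.396% of all genes did. With edgeR on the reads behind the CPM 0 of the 10 passed there, and with DESeq2 *Magohb* did.

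*Magoh* lay lower in all 3 *Nrde2* genotypes of the first experiment, short of the threshold. The WT libraries, which the 3 comparisons share, held 89.4 and 97.5 CPM. The *Nrde2*-KO libraries held 68.2 and 73.6 CPM (-0.40 ± 0.14, adjusted p = 0.0365), the *Nrde2-d200* libraries 79.5 and 66.1 CPM (-0.36, adjusted p = 0.0808) and the *Nrde2-D174R* libraries 69.5 and 68.6 CPM (-0.43, adjusted p = 0.117). None of these 6 libraries overlapped WT, and in fits of the compared groups alone *Magoh* passed in each (adjusted p = 0.00179, 0.00883 and 0.00896), as did *Magohb* in *Nrde2-D174R* (0.00635). In the second *Nrde2* experiment the *Magoh* libraries held 99.2 and 104 CPM in WT and 87.1 and 105 CPM in KO, which overlapped (-0.09, adjusted p = 0.643).

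*Magohb* also fell in *Ccdc174-dTAG* cells under CHX, from 14.2 and 14.6 to 10.2 and 9.25 CPM (-0.55 ± 0.10, adjusted p = 0.00325). It was the 1 gene of 10 that passed in that comparison, beside 3.19% of all genes that rose and 5.87% that fell. The call did not hold without any 1 of the 4 libraries: without the first or second WT library the adjusted p was 0.0172 or 0.0193, and without the first or second dTAG-13 library 0.0119 or 0.0397. Without CHX the levels of 14.3 and 17.2 CPM in WT and 10.8 and 15.0 CPM with dTAG-13 overlapped (-0.30 ± 0.22, adjusted p = 0.444). The WT levels of *Magohb* differed between experiments, from 3.86 to 17.2 CPM without CHX. *Magohb* shares exon sequence on the same strand with the annotated gene *Gm44958*; reads that fit both genes were not counted.

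Without CHX, CCDC174 degradation moved no gene of the set past the threshold (1 of 10 at an unadjusted p under 0.05, *Ccdc174* itself), while 1.14% of all genes rose and 4.45% fell. edgeR and DESeq2 on the recovered reads also passed 0 of the 10. In a limma fit with a block for the replicate number, *Ccdc174* itself passed (0.37, adjusted p = 0.00453). The labels do not say that these numbers mark a shared culture or day. The 95% interval of the change was -0.24 to 0.18 on the log2 scale for *Eif4a3*, -0.20 to 0.38 for *Magoh*, -0.11 to 0.49 for *Rbm8a* and -0.10 to 0.28 for *Cwc22*, so changes of those genes beyond these bounds were not seen. The changes in *Ccdc174-dTAG* and *Nrde2*-KO cells, which share no libraries, were also compared with each other: none of the 10 genes differed past the threshold (2 at an unadjusted p under 0.05), against 1.65% of all genes.

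The genes of the trimeric core, *Eif4a3*, *Magoh* and *Rbm8a*, fell in *Mtrex*-KO cells. MTREX is the RNA helicase that feeds nuclear RNAs to the exosome, and *Mtrex*-KO moved more genes than any other genotype, with 28.5% of all genes rising and 27.4% falling. In the set 2 of 10 rose and 5 of 10 fell. *Eif4a3*, the helicase, went from 162 and 190 to 120 and 144 CPM (-0.42 ± 0.10, adjusted p = 0.00121). *Magoh* went from 78.0 and 95.3 to 54.0 and 73.0 CPM (-0.46 ± 0.14, adjusted p = 0.00725), and *Rbm8a* from 122 and 141 to 71.2 and 102 CPM (-0.62 ± 0.14, adjusted p = 0.000902). In each case both KO libraries lay below both WT libraries.

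All 3 calls were lost without the second WT library (adjusted p from 0.0174 for *Rbm8a* to 0.11 for *Magoh*) or without the first KO library (from 0.0232 for *Eif4a3* to 0.147 for *Magoh*). That KO library had 72.1% of its total in genes and a scaling factor of 0.681, against 82.7% and 0.828 for the second, and the summed stem cell markers were at 4328 and 5122 CPM at the lowest and highest in KO against 5781 and 5929 CPM in WT; their part in the falls was not tested. On the CPM as deposited the falls were larger, at -0.81 for *Eif4a3*, -0.85 for *Magoh* and -1.02 for *Rbm8a*. *Casc3*, at 55.8 and 55.0 against 72.5 and 61.8 CPM, moved the other way and narrowly missed the threshold (0.27 ± 0.09, adjusted p = 0.0104). The share of genes that passed in the set, 7 of 10, stood beside 55.9% of all genes.

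*Cwc22* was the gene of the set that rose most in *Mtrex*-KO. It lies on chromosome 2 (ENSMUSG00000027014, chr2:77881159-77946375, minus strand). It shares exon sequence on the same strand with the annotated gene *Gm13727*, and reads that fit both genes were not counted. The WT libraries held 65.6 and 69.0 CPM and the KO libraries 134 and 107 CPM, a log2 fold change of 0.83 ± 0.09 (adjusted p = 4.09e-07), or 1.78-fold. The call held in all alternative settings and without any 1 library, with 0.43 on the CPM as deposited. In the second *Nrde2* experiment it rose from 73.6 and 76.9 to 103 and 98.3 CPM (0.42 ± 0.09, adjusted p = 0.00205), whereas in the first it stood at 56.5 and 58.9 in WT and 67.1 and 61.8 CPM in KO libraries (0.16 ± 0.09, adjusted p = 0.205). The second-experiment call was lost without the first WT library (adjusted p = 0.0225), the second WT library (0.0115) or the first KO library (0.0207).

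*Cwc22* and *Rnps1* were the 2 genes of 10 that passed in the second *Nrde2*-KO experiment, both upward, where 7.44% of all genes rose and 11.3% fell. RNPS1 is a splicing activator shared by the ASAP and PSAP complexes, which bind the EJC. Its mRNA went from 36.0 and 34.5 to 45.05 and 44.9 CPM there (0.35 ± 0.09, adjusted p = 0.00507), and from 32.5 and 32.1 to 37.1 and 38.7 CPM in the first experiment (0.23 ± 0.09, adjusted p = 0.0523). Both KO libraries exceeded both WT libraries in each experiment. The call of the second experiment was lost without its first or second WT library (adjusted p = 0.0185 and 0.0506) and without its first or second KO library (0.0262 and 0.0298).

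In *Mtrex*-KO *Rnps1* moved in the other direction, from 28.8 and 28.3 to 22.2 and 24.3 CPM (-0.29 ± 0.09, adjusted p = 0.0059). This call was lost without the first WT library (adjusted p = 0.0326), the second WT library (0.0225) or the first KO library (0.0516). Of its partners in the peripheral complexes, *Acin1* stood at 270 and 227 CPM in *Mtrex* WT and 281 and 301 CPM in KO libraries (0.23, adjusted p = 0.0658). *Pnn* stood at 116 and 115 CPM and, in KO, at 105 and 134 CPM on either side of WT (0.04, adjusted p = 0.746).

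The difference between the *Mtrex*-KO and *Nrde2*-KO effects was tested directly, and 1 gene of the set was higher and 1 lower in it, beside 17.4% and 14.1% of all genes. The *Mtrex*-KO effect on *Cwc22* exceeded the *Nrde2*-KO effect by 0.67 ± 0.13 on the log2 scale (adjusted p = 0.000447). For *Rnps1* it was lower by 0.52 ± 0.12 on that scale (limma, adjusted p = 0.00206). The *Cwc22* difference held without any 1 library and was 0.22 on the CPM as deposited (adjusted p = 0.186), where the median of all genes moved by -0.44. The *Rnps1* difference was lost without the second *Nrde2*-KO library (adjusted p = 0.0122).

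CHX moved 7 to 9 of the 10 genes past the threshold in each of 4 comparisons of treated with untreated libraries: the *Ccdc174* line with and without dTAG-13, and WT and *Nrde2*-KO cells of the second *Nrde2* experiment. *Ccdc174* rose in all 4. It went from 28.3 and 28.3 to 48.6 and 48.4 CPM in the *Ccdc174* line (0.77 ± 0.07, adjusted p = 4.99e-07), and from 35.4 and 38.2 to 57.0 and 54.1 CPM in *Ccdc174-dTAG* cells (0.59 ± 0.07, adjusted p = 6.48e-06). In the *Nrde2* experiment it went from 33.3 and 31.1 to 62.7 and 56.5 CPM in WT (0.88 ± 0.07, adjusted p = 1.53e-07) and from 36.3 and 35.5 to 63.0 and 60.5 CPM in KO cells (0.78 ± 0.07, adjusted p = 4.71e-07). All 8 treated libraries lay above all 8 untreated ones, and the rise was 1.51- to 1.84-fold.

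*Casc3* rose with it in 3 of the 4 comparisons, by 0.34 in *Nrde2* WT, 0.57 in *Nrde2*-KO and 0.42 in *Ccdc174-dTAG* cells on the log2 scale. In the *Ccdc174* line without dTAG-13 it went from 89.1 and 92.2 to 106 and 102 CPM, with no overlap and an adjusted p of 0.01004, just short of the threshold. It passed there with 1 added before log2 (0.00943), with a filter at a mean of 1 CPM (0.00890), on the CPM as deposited (2.79e-05) and with edgeR on the recovered reads (0.00422).

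**Figure D3:**
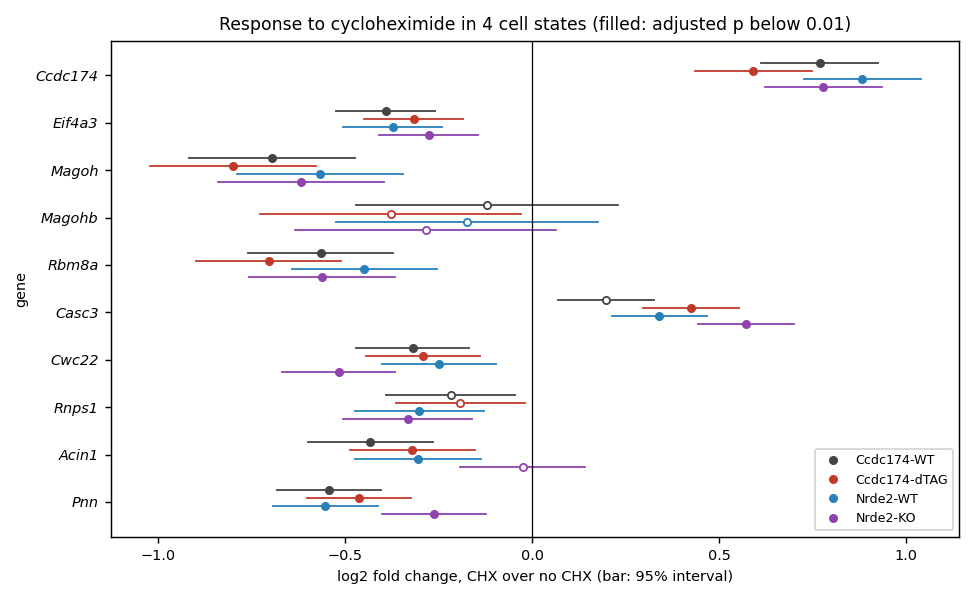
Log2 fold change of each of the 10 genes after CHX against untreated libraries, with 95% intervals from limma, in the 4 comparisons (colours). *Ccdc174* lies between 0.59 and 0.88 and *Casc3* between 0.20 and 0.57, while *Magoh* lies between -0.80 and -0.57 and *Rbm8a* between -0.70 and -0.45.

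The rest of the core fell, except *Magohb*, which did not pass the test. *Magoh* went from 94.1 and 86.5 to 61.6 and 50.3 CPM in the *Ccdc174* line, from 89.3 and 104 to 56.8 and 53.5 CPM with dTAG-13, from 99.2 and 104 to 67.2 and 70.0 CPM in *Nrde2* WT and from 87.1 and 105 to 60.9 and 63.4 CPM in *Nrde2*-KO cells. Its log2 changes ran from -0.80 to -0.57 and passed in all 4. *Rbm8a* fell by similar amounts, from -0.70 to -0.45. *Eif4a3*, *Cwc22* and *Pnn* also fell in all 4 comparisons, *Acin1* in 3 and *Rnps1* in 2, and *Magohb* passed in none. The changes of *Magohb* ran from -0.38 to -0.12.

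Under CHX 1 of 10 rose and 6 fell in the *Ccdc174* line (25.4% and 24.1% of all genes), 2 rose and 6 fell in *Ccdc174-dTAG* (26.3% and 24.1%), 2 rose and 7 fell in *Nrde2* WT (25.1% and 22.4%) and 2 rose and 6 fell in *Nrde2*-KO cells (26.3% and 22.5%). The median change of the 10 genes was between -0.36 and -0.28 in these comparisons, and that of all genes between -0.01 and 0.03. On the CPM as deposited the median of all genes shifted up by 0.17 to 0.22, and on that scale *Eif4a3* passed in none of the 4 comparisons, *Cwc22* in 1 and *Acin1* in none, whereas the rise of *Ccdc174* and the fall of *Magoh* passed in all 4. The summed level of the 8 stem cell markers lay between 4297 and 5485 CPM without CHX and between 2742 and 3637 CPM with it; its part in these changes was not tested.

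*Ccdc174*, *Magoh* and *Casc3* kept their CHX calls without any 1 library. The smaller CHX calls did not all do so. *Rbm8a* in *Nrde2* WT was lost without the first untreated library (adjusted p = 0.011). *Eif4a3* was lost in *Ccdc174-dTAG* without the second CHX library (0.0107), and in *Nrde2*-KO without the second untreated (0.0117) or second CHX library (0.0203). *Cwc22* was lost in the *Ccdc174* line without the first untreated (0.0116) or second CHX library (0.0149), and *Pnn* in *Nrde2*-KO without the second untreated (0.0184), first CHX (0.0242) or second CHX library (0.0152). *Cwc22* and *Acin1* in *Ccdc174-dTAG*, *Cwc22*, *Rnps1* and *Acin1* in *Nrde2* WT, and *Rnps1* in *Nrde2*-KO were each lost without any 1 of 3 libraries, with adjusted p between 0.0119 and 0.107.

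No gene of the set responded differently to CHX in *Nrde2*-KO than in WT cells by the test of the interaction (4 of 10 at an unadjusted p under 0.05; 0.515% of all genes passed), or in *Ccdc174-dTAG* than in the untreated line (1 of 10; 0.251%). edgeR and DESeq2 on the recovered reads passed 0 of the 10 in both tests. Between *Nrde2*-KO and WT under CHX 2 of 10 genes rose, beside 12.5% of all genes that rose and 15.4% that fell. *Rnps1* went from 26.8 and 30.4 to 37.0 and 34.3 CPM (0.32 ± 0.08, adjusted p = 0.00757). *Pnn*, a nuclear speckle protein of the PSAP complex, went from 109 and 117 to 135 and 137 CPM (0.27 ± 0.06, adjusted p = 0.00276). Both calls were lost without the first WT library (adjusted p = 0.0531 and 0.0193), the first KO library (0.0724 and 0.0194) or the second KO library (0.0185 and 0.0243).

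In Ribo-seq the ribosome-protected reads of *Casc3* fell in *Nrde2*-KO cells, and its mRNA did not pass the test. CASC3 (also called MLN51 or Barentsz) is the core component linked to the cytoplasm and to decay. Its gene (ENSMUSG00000078676, chr11:98804905-98833814, plus strand) gave 66.9 and 61.5 CPM in WT and 47.1 and 44.1 CPM in *Nrde2*-KO Ribo-seq libraries (-0.49 ± 0.09, adjusted p = 0.000306). The matching RNA-seq values were 54.5 and 53.4 CPM in WT and 56.7 and 63.0 CPM in KO (0.15 ± 0.09, adjusted p = 0.213). The groups did not overlap in either assay, the KO libraries lying below WT in Ribo-seq and above WT in RNA-seq. In the second *Nrde2* experiment *Casc3* mRNA stood at 67.3 and 65.2 CPM in WT and 60.3 and 64.9 CPM in KO libraries (-0.08, adjusted p = 0.501).

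*Casc3* was the 1 gene of the set that passed in Ribo-seq, where 11.0% of all genes rose and 14.2% fell. It was also the 1 gene whose Ribo-seq change differed from its RNA-seq change past the threshold (4.39% of all genes higher in Ribo-seq, 2.56% lower). That difference was -0.64 ± 0.12 on the log2 scale (adjusted p = 0.00372). The Ribo-seq fall held without any 1 library, and on the CPM as deposited it was -0.34 (adjusted p = 0.0889). The difference between the assays was lost without the first (adjusted p = 0.0123) or second (0.0122) WT RNA-seq library, the second KO RNA-seq library (0.0192), the first WT Ribo-seq library (0.0181) or the second KO Ribo-seq library (0.0142). *Casc3* shares annotated exon sequence with *Msl1* on the same strand and *Gm12359* on the other.

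*Cwc22* and *Rbm8a* showed smaller shifts that did not pass. Ribo-seq of *Cwc22* was 15.0 and 17.8 CPM in WT and 12.4 and 12.5 CPM in KO (-0.38 ± 0.15, adjusted p = 0.0468), and its difference from RNA-seq was -0.54 (adjusted p = 0.0231). For *Rbm8a* Ribo-seq gave 59.9 and 59.9 CPM in WT and 73.9 and 67.7 CPM in KO (0.24 ± 0.09, adjusted p = 0.0398), and its difference from RNA-seq was 0.47 (adjusted p = 0.0102). The *Rbm8a* difference passed in limma with 1 added before log2 (adjusted p = 0.00821) and with a filter at a mean of 1 CPM (0.00885). It also passed in limma with a replicate block (0.00919) and with DESeq2 on the recovered reads (0.00339). *Magohb*, whose RNA fell in the matching RNA-seq libraries, gave 13.7 and 11.6 CPM in WT and 10.4 and 12.4 CPM in KO Ribo-seq libraries, which overlapped (-0.15 ± 0.16, adjusted p = 0.51).

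**Figure D4:**
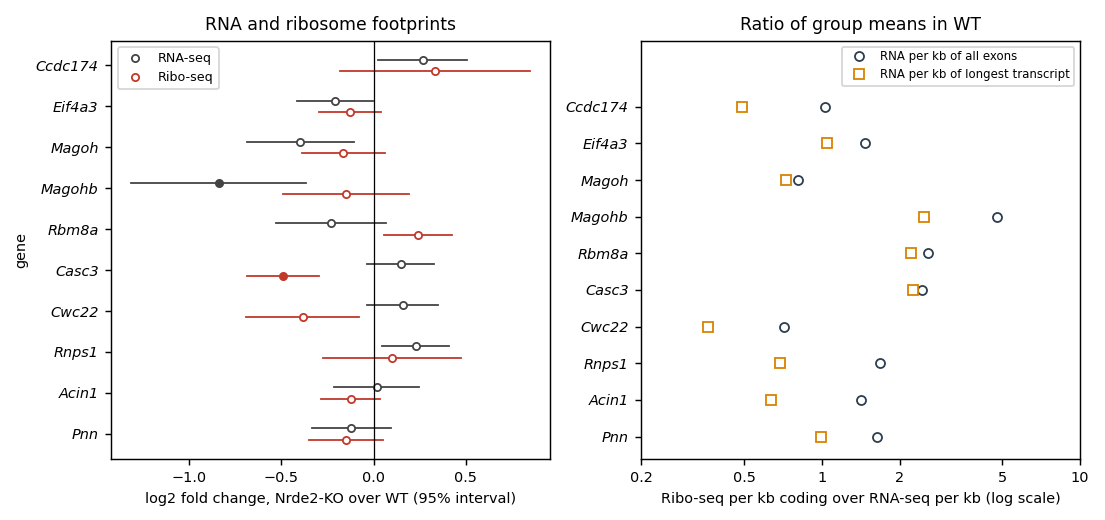
Left, log2 fold change in *Nrde2*-KO against WT cells by RNA-seq (first experiment) and by Ribo-seq for each of the 10 genes, with 95% intervals from limma; *Casc3* is at 0.15 in RNA-seq and -0.49 in Ribo-seq. Right, ratio of Ribo-seq per kb of coding sequence to RNA-seq per kb in WT cells on a log axis, with the RNA length taken over all annotated exons (circles) or the longest transcript (squares); *Cwc22* is the lowest on both, at 0.711 and 0.362.

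*Ccdc174* had the lowest Ribo-seq level of the set. Its Ribo-seq level was 3.65 and 4.14 CPM in WT and 4.86 and 5.07 CPM in *Nrde2*-KO libraries, from 27 to 39 reads each (0.33 ± 0.25, adjusted p = 0.311). Per kilobase of coding sequence it was the lowest of the 10 in WT at 2.78 CPM, against 115 for *Rbm8a*, 107 for *Eif4a3* and 98.2 for *Magoh*. Its RNA per kilobase was also the lowest on the lengths used. The ratio of Ribo-seq per kilobase of coding sequence to RNA-seq per kilobase was 1.03 over all annotated exons and 0.493 over the longest transcript. *Cwc22* had the lowest ratio of the set on both lengths (0.711 and 0.362) and *Magohb* the highest (4.75 and 2.48). Without division by length, Ribo-seq over RNA-seq was lowest for *Ccdc174*, at 0.156 in WT and 0.165 in *Nrde2*-KO. *Cwc22* was next, at 0.284 and 0.193, so which gene is lowest depends on the length used. Of 50-base transcript windows 39.3% occur elsewhere in the genome for *Cwc22* and 0% for *Magohb*, and reads from such stretches were not counted. Their part in the ratios was not tested. The ratio is a description with no test: the assays differ in library preparation, and RNA-seq of total RNA also counts nuclear and intron-containing transcripts where they overlap exons.

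Some of the 10 genes have near copies elsewhere in the genome, and the authors counted only reads with 1 mapping position. Every 50-base window of each gene's principal transcript was therefore compared with the genome. The share of windows found elsewhere was 69.4% for *Rnps1* (35.3% in *Gm9825* and 34.2% outside annotated genes, both on chromosome 6). It was 39.3% for *Cwc22* (*Gm13691*, *Gm13693* and *Gm13694* on chromosome 2) and 24.5% for *Eif4a3* (*Gm5576*, *Gm5580* and *Gm8994* on chromosome 6). It was 12.3% for *Ccdc174* (a chromosome 10 locus of *E130307A14Rik* and *Gm8899*) and 8.06% for *Rbm8a* (*Rbm8a2*), and none was found for *Magoh*, *Magohb*, *Casc3*, *Acin1* or *Pnn*. Reads from the shared stretches are missing from the counts, so the levels of the first 5 are understated and rest on the remaining windows.

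The near copies of *Eif4a3* on chromosome 6 behaved unlike *Eif4a3* itself. *Gm8994* (named *Eif4a3l1* in RefSeq; chr6:136327539-136329983) stood at 0.910 and 0.780 CPM in WT and 7.23 and 5.35 CPM in *Nrde2*-KO libraries (2.57 ± 0.48, adjusted p = 0.000682). In the second experiment it went from 3.43 and 2.86 to 27.7 and 21.1 CPM (2.85 ± 0.48, adjusted p = 0.000251), and in *Mtrex*-KO from 5.72 and 2.19 to 74.8 and 30.1 CPM (3.64 ± 0.48, adjusted p = 3.43e-06). No KO library overlapped its WT in any of the 3 experiments.

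*Gm5580* (*Eif4a3l2*; chr6:116551141-116552502) rose in the same 3 comparisons by 1.96, 2.81 and 3.15 on the log2 scale. *Gm8994* and *Gm5580* also rose in *Nrde2*-KO cells under CHX, by 2.50 and 1.88. Without the first KO library the *Gm8994* calls in *Nrde2*-KO and in *Nrde2*-KO with CHX were lost (adjusted p = 0.0125 and 0.0154), as was the *Gm5580* call with CHX (0.0188), which was also lost without the second WT library (0.0122). In *Nrde2-d200* the changes of 1.86 and 1.22 missed the threshold (adjusted p = 0.0133 and 0.0158), and in *Nrde2-D174R* and *Ccdc174-dTAG* they lay between -0.46 and 0.03. CHX against no CHX in *Nrde2*-KO cells moved both down past the threshold, *Gm8994* by -1.70 and *Gm5580* by -1.62. On the CPM as deposited the *Gm8994* fall was -1.52 and did not pass (limma, adjusted p = 0.0185). Leaving out 1 library gave -1.92 to -1.48 for *Gm8994* and -2.00 to -1.23 for *Gm5580*. These fold changes are on log2(CPM + 0.25), which understates the change of genes this low. *Eif4a3* did not pass in either *Nrde2*-KO experiment, with 144 and 164 against 126 and 139 CPM in the first (-0.21, adjusted p = 0.117) and 221 and 224 against 188 and 195 CPM in the second (-0.22, adjusted p = 0.106).

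**Figure D5:**
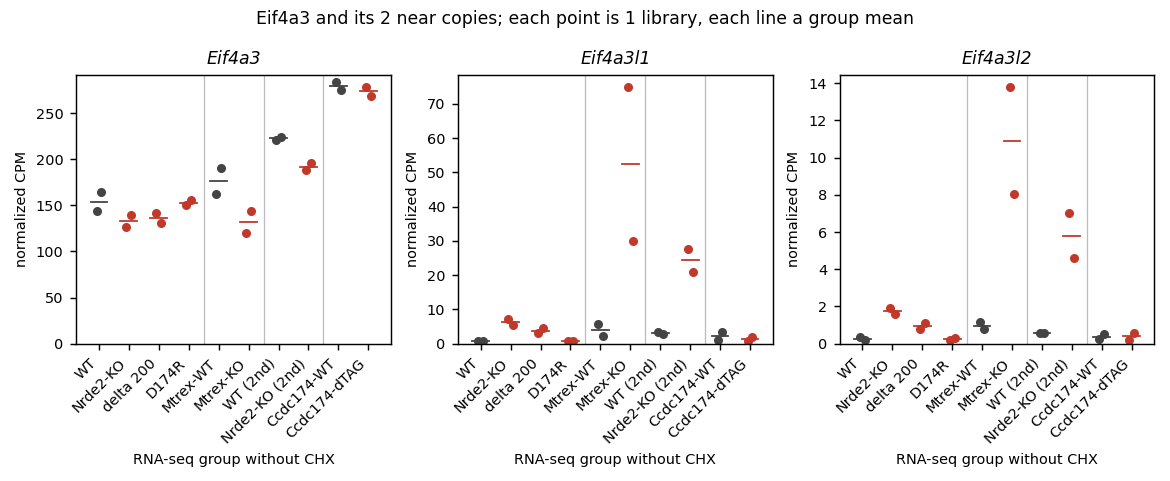
Normalized CPM of *Eif4a3* and of its near copies *Gm8994* and *Gm5580* in the RNA-seq libraries of each genotype without CHX, one point per library. Both copies are higher in the *Nrde2*-KO and *Mtrex*-KO libraries than in their WT, where *Gm8994* reaches 74.8 CPM in *Mtrex*-KO, while *Eif4a3* stays between 120 and 284 CPM.

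Other genes of the pathway were taken from lists of EJC partners (splicing, export and decay factors that bind the complex) and of neighbours of CWC22 in the active spliceosome. Of 23 partner genes 8 rose and 6 fell in *Mtrex*-KO, where 28.5% and 27.4% of all genes did, and those also past a log2 fold change of 1 were *Sap18* (1.76; adjusted p = 2.73e-09), the ASAP and PSAP subunit, *Srrm2* (1.08; 0.00216), a nuclear speckle scaffold, and *Thoc6* (1.06; 1.14e-07), a subunit of the THO export complex. The *Srrm2* value rests on the first KO library: the WT libraries held 379 and 319 CPM and the KO libraries 1195 and 449 CPM, and without that first library the change was 0.37 (adjusted p = 0.0488). The *Srrm2* call was also lost without the second WT library (0.0247) and on the CPM as deposited (0.68, adjusted p = 0.0110), where *Thoc6* was at 0.66. In *Nrde2*-KO 1 of the 23 rose and 3 fell (7.64% and 10.6% of all genes), in *Ccdc174-dTAG* 0 rose and 1 fell (1.14% and 4.45%), and in *Nrde2*-KO Ribo-seq 0 rose and 7 fell (11.0% and 14.2%). The *Nrde2*-KO change in Ribo-seq was lower than that in RNA-seq for 5 of the 23 (2.56% of all genes) and higher for 0, with *Sap18* at -1.55, a call lost without any 1 of 6 of the 8 libraries (adjusted p from 0.0109 to 0.0271). Under CHX 1 of the 23 rose in each of the 4 comparisons: *Alyref2*, an export adaptor, by 1.02 to 1.46. In the *Ccdc174* line, *Ccdc174-dTAG*, *Nrde2* WT and *Nrde2*-KO cells 11, 11, 8 and 8 of the 23 fell. Of all genes 25.1 to 26.3% rose and 22.4 to 24.1% fell there. Of 22 spliceosome neighbours 5 rose and 7 fell in *Mtrex*-KO, again beside 28.5% and 27.4% of all genes, with *Ppil1* at -1.52 and *Snrnp40* at -1.09, and *Xab2* fell by 1.14 in *Nrde2*-KO Ribo-seq. The *Mtrex*-KO effect differed from the *Nrde2*-KO effect past both thresholds for *Thoc6* (1.11) and *Ppil1* (-1.04). Of all genes 17.4% were higher and 14.1% lower in that test. On the CPM as deposited the *Thoc6* difference was 0.66 and did not pass (limma, adjusted p = 0.0106). Under CHX 14, 11, 10 and 9 of the 22 neighbours fell in the same order, and 0, 1, 0 and 1 rose. The median CHX change lay between -0.25 and -0.15 for the 23 partners and between -0.30 and -0.21 for the 22 neighbours. Targets of nonsense-mediated decay served as a check of CHX, and 6 of 7 rose in each of the 4 comparisons. Of all genes 25.1 to 26.3% rose there, and 1 of the 7 targets fell past the threshold in the *Ccdc174* line.

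Over the 14 RNA-seq groups, the genes whose mean log2 level followed *Ccdc174* most closely were *Zfp345* (Pearson r = 0.975), *R3hcc1l* (0.970) and *Id3* (0.969), out of the 9003 genes averaging 10 CPM or more. Each was higher in the 4 CHX groups, which the correlations share, and *Id3* ranged from 3.46 to 201 CPM against 20.8 to 61.8 for *Ccdc174*. Within the set, *Casc3* followed *Ccdc174* most closely (r = 0.756) and *Magoh* least (r = -0.544), while *Rbm8a* followed *Magoh* (r = 0.785). These are descriptions over group means, with n = 14.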

How the data were processed

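RNA-seq (28 libraries) and Ribo-seq (4 libraries) were analysed; the 16 BCLIP samples of the series were not analysed here. Per the methods and the submitters' processing notes, the authors used STAR (the notes name 2.7.0a and 2.7.3a) for alignment to the mm10 genome and counted uniquely mapping, stranded reads per gene with featureCounts, without reads that fit several genes. The deposited values are CPM relative to the library total, of which 72.1 to 92.1% lay in genes (RNA-seq) and 61.4 to 66.8% (Ribo-seq). All values above 0 in all 32 libraries were whole reads within 0.1 read. Names came from GENCODE M21 (55154 of 55335 genes); the authors used M23.

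Normalized CPM are CPM divided by median-of-ratios factors (0.681 to 1.14 in RNA-seq). Differences were tested with limma 3.58.1 (R 4.3.3; trended moderated variance) on log2(normalized CPM + 0.25), over genes with a mean of 0.5 CPM or more (14889 to 15476 in RNA-seq, 13857 in Ribo-seq, 12788 in both assays). All 20 libraries without CHX shared a fit, as did the 8 with CHX, the 16 of the CHX experiments, the 4 Ribo-seq libraries, and the 8 of Ribo-seq and matching RNA-seq. P-values are two-sided and were adjusted by Benjamini-Hochberg over all genes of a fit within each of 18 comparisons; passed means an adjusted p below 0.01. The fit was tested on simulated data. Errors are standard errors.

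The 10 genes and all lists were chosen with earlier results of these data known. Other pathway genes were named where a change also exceeded 1 on the log2 scale. *Zfp345*, *R3hcc1l* and *Id3* were taken by rule as the 3 genes with the highest correlation to *Ccdc174*. The *Eif4a3* copies *Gm8994* and *Gm5580* met the rule for pathway genes and are also given for the genotypes without CHX where they did not pass. Alternatives were other pseudocounts and filters, CPM as deposited, fits of the compared groups alone, a replicate block, edgeR 4.0.16 and DESeq2 1.42.0 on the recovered reads, and leaving out each library, where a group's lone library was assumed to vary like the other groups. Leaving out libraries and the CPM as deposited for the other named pathway genes, and the per-kilobase ratio of the assays, were added after seeing the data.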

Additional observations from a re-analysis of the deposited data

Results flagged for a closer look

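A direct test of the difference between a pair of effects passed in 3 cases, 1 between the assays and 2 between deletions in different lines with different WT libraries. For *Casc3* the *Nrde2*-KO effect in Ribo-seq minus that in RNA-seq was -0.64 on the log2 scale (SE 0.12, limma adjusted p = 0.00372). For *Cwc22* the *Mtrex*-KO effect minus the *Nrde2*-KO effect was 0.67 (SE 0.13, adjusted p = 0.000447), and for *Rnps1* it was -0.52 (SE 0.12, adjusted p = 0.00206). In fits of the compared groups alone the latter pair had adjusted p of 0.0102 (*Cwc22*) and 0.0152 (*Rnps1*) and did not pass.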

How the results depend on the processing

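Of the 180 results of the 10 genes in 18 comparisons, 50 passed; 22 of these passed in all 9 alternative settings and 26 without any 1 library of the compared groups, and no passed result changed direction. With 1 added before log2, 2 genes passed in Ribo-seq against RNA-seq, as with a filter at a mean of 1 CPM and with DESeq2, which also passed 1 in *Nrde2-D174R*. Without a filter, 0 passed in *Nrde2*-KO, *Nrde2*-KO with CHX, *Ccdc174-dTAG* with CHX and Ribo-seq against RNA-seq. On the CPM as deposited the count was 0 in *Nrde2*-KO, Ribo-seq and Ribo-seq against RNA-seq, 1 in the second *Nrde2*-KO experiment, and 5, 4 and 5 under CHX in *Ccdc174-dTAG*, *Nrde2* WT and *Nrde2*-KO; there the median of all genes moved by -0.38 in *Mtrex*-KO, by 0.17 to 0.22 under CHX and by 0.14 in Ribo-seq. In fits of the compared groups alone, 2 passed in each of *Nrde2*-KO, *Nrde2-d200*, *Nrde2-D174R* and *Mtrex*-KO, 1 in the second *Nrde2*-KO experiment and in *Nrde2*-KO with CHX, and 0 in *Mtrex*-KO against *Nrde2*-KO. The causes were not tested.

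Leaving out 1 library gave 0 to 1 genes in *Nrde2*-KO, 1 to 1 in *Nrde2-d200*, 3 to 8 in *Mtrex*-KO, 0 to 1 in the second *Nrde2*-KO experiment, 0 to 2 in *Nrde2*-KO with CHX, 0 to 0 in *Ccdc174-dTAG* with CHX, 6 to 7, 5 to 8, 5 to 8 and 5 to 7 under CHX (*Ccdc174* line, *Ccdc174-dTAG*, *Nrde2* WT, *Nrde2*-KO), 1 to 1 in Ribo-seq, 0 to 1 in Ribo-seq against RNA-seq and 1 to 3 in *Mtrex*-KO against *Nrde2*-KO. The level of *Ccdc174* was 5.64 CPM per kb on its longest transcript, against 2.71 on all exons.

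The labels do not say that a replicate number marks a shared culture or day, so the libraries were not treated as paired. Deviations of same-numbered libraries correlated at -0.035 to 0.412 over 20 pairs of groups, above 0.1 in 17. With the replicate block, 2 genes passed in *Nrde2*-KO, 1 in *Nrde2-D174R*, 1 in *Ccdc174-dTAG* (*Ccdc174* itself, adjusted p = 0.00453), 3 in *Ccdc174-dTAG* with CHX (*Ccdc174* among them, 0.00435) and 2 in Ribo-seq against RNA-seq, and the count over all genes rose by 1.05 to 6.59 times. With 27 to 39 reads per Ribo-seq library, depth limits *Ccdc174* most there.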
